A study of Mus musculus with 8 samples.

Results

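The circadian clock genes described here are 10 of the 55114 genes counted in intestinal crypts, and they were taken by name: Arntl (also called Bmal1), Per1, Per2, Per3, Cry1, Ciart, Nr1d1, Nr1d2, Dbp and Tef. They belong to the core transcriptional loop of the clock or are output factors close to it. The rule that picks them uses no measured value, but the list was chosen with earlier results of these data known. All 10 were expressed above the filter on low counts, which 16109 genes passed. The crypts came from 4 Mex3a-/- mice (KO) and 4 littermate controls (WT), all C57BL/6 and 8 weeks old. The KO is constitutive, with exon 1 and part of exon 2 of Mex3a deleted in every tissue, so it is not limited to the epithelium. Crypts were shaken off the intestine after incubation with EDTA, and the labels name neither the segment of intestine nor the hour at which a mouse was killed.

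In nearly every mammalian cell, the proteins ARNTL and CLOCK bind E-box elements and switch on the Per, Cry, Ciart, Nr1d and Dbp genes. PER, CRY and CIART proteins then block ARNTL and CLOCK, while the nuclear receptors REV-ERBα and REV-ERBβ, encoded by Nr1d1 and Nr1d2, repress Arntl through RORE elements. The output factors DBP and TEF act through D-box elements, where NFIL3 opposes them. As a result, Arntl transcripts peak in one part of the day and Dbp, Tef and Nr1d1 transcripts in the opposite part. In the intestine the clock is known to follow both light and feeding time, and it times nutrient transport and cell division.

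Between 20324184 and 24726221 reads per WT mouse and between 23489180 and 30654105 per KO mouse were counted on genes. Mex3a, the deleted gene, had 236 to 328 counts in WT and 6 to 28 in KO mice. Epithelial markers summed to at least 9111 CPM (reads counted on a gene, scaled to library size) in every mouse and crypt stem cell markers to at least 3347 CPM, and none of these markers was at 0. The mice also carried a division that the labels do not give. In each genotype, replicates 1 and 2 carried transcripts of the Y chromosome (Ddx3y, 1073 to 1655 counts) with at most 40 counts of Xist, whereas replicates 3 and 4 carried 36964 to 50562 counts of Xist, the RNA that coats the inactive X chromosome, and 0 counts of Ddx3y. They are called Y mice and Xist mice below, 4 of each, and they are not groups of the study. Because the division coincides with the replicate numbers, a difference between Xist mice and Y mice cannot be told apart from one in day, hour, litter or handling shared by replicates 1 and 2 or by replicates 3 and 4.

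The start regions of the clock genes were searched for these 3 elements, and 6 of the 10 genes held a match. In RefSeq windows of 300 bases (250 before and 50 after the start, GRCm38.p6), available for 9 of the 10 genes in 12 windows, both strands were searched for the E-box CACGTG, the D-box TTATGNAA and the RORE TNGGTCA, and no match overlapped that of another motif. Stretches around matches in Arntl, whose product pairs with CLOCK, and in 4 of its partners in the loop are shown as examples, with the matched letters in capitals, read 5′ to 3′ along the gene. The E-box of Cry1, a further E-box of Ciart and the RORE matches of Per3 and Tef are not shown.
Arntl RORE pair, chr7:113207263-113207292, plus strand: caTTGGTCAgaggctttcctaTCGGTCAct
Arntl RORE, chr7:113207533-113207555, plus strand: gcagaaagTAGGTCAgggacgga
Per1 E-box, chr11:69098775-69098796, plus strand: cccaagtcCACGTGcagggatg
Per1 D-box, chr11:69098917-69098940, plus strand: gcctggcaTTATGCAAcccgcctc
Per3 D-box, chr4:151044855-151044878, minus strand: cccgcgcgTTATGTAAggtactcg
Per3 D-box, chr4:151044808-151044831, minus strand: gcccgcggTTATGTAAcccccgcc
Tef E-box, chr15:81802538-81802559, plus strand: tgtggctcCACGTGctgcagct
Tef E-box of a second start, chr15:81811268-81811289, plus strand: tggcccagCACGTGtctacatc
Ciart E-box pair, chr3:95882262-95882291, minus strand: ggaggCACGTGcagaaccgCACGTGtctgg
The E-box was found in 5 of the 12 windows (1 each of Ciart, Cry1 and Per1 and both of Tef), against 7.15% of all 32851 windows. The D-box was found in 2 of the 12 (Per1 and Per3), against 3.38% of all windows. The RORE was found in 4 of the 12 (Per3, 1 of Tef and both of Arntl, which overlap), against 11.0% of all windows. The windows of Dbp, Nr1d1 and Nr1d2 held none of the 3 words, which says only that these letters are not in these windows. The transcribed end of the Nr1d1 window was not found in its GENCODE transcripts, unlike that of the other 11 windows, so this window may not lie at the start of the gene. Per2 had no window in the table. A match is a word in the sequence and not a measured binding site.

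**Figure D1:**
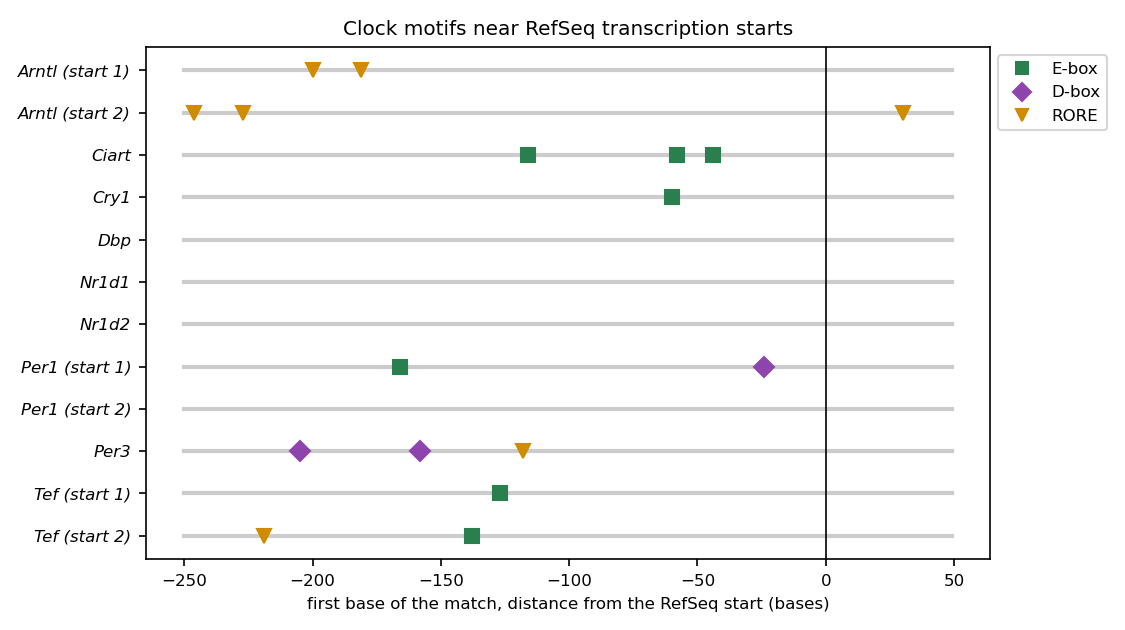
Position of each match to the E-box (square), D-box (diamond) and RORE (triangle) relative to the RefSeq start of each clock gene, in bases, with one grey line per window. Ciart carries 3 E-boxes, Per3 carries 2 D-boxes, and the windows of Dbp, Nr1d1 and Nr1d2 are empty.

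On the scale of FPKM, which corrects for gene length, Nr1d1 had the highest mean level of the 10 genes over the 8 mice, 17.0 ± 9.88 (SD, n = 8), followed by Per1 at 12.1 ± 3.88 and Nr1d2 at 11.0 ± 5.16. Per2 (6.05 ± 1.57), Arntl (5.47 ± 2.21), Tef (4.66 ± 3.43) and Cry1 (3.64 ± 1.55) had intermediate FPKM levels. Dbp (2.33 ± 2.03), Per3 (1.53 ± 0.652) and Ciart (1.08 ± 0.337) were lowest in FPKM. Each step in this order was smaller than the larger SD of the neighbouring genes, so no neighbours were set apart by more than their spread. The order was not the same in the Y mice and the Xist mice. In Y mice the mean FPKM of Arntl, 7.26 ± 1.55 (SD, n = 4), lay above those of Tef, 1.56 ± 0.927, and Dbp, 0.465 ± 0.228. In Xist mice Arntl, at 3.67 ± 0.594, lay below both Tef, at 7.75 ± 1.01, and Dbp, at 4.19 ± 0.589.

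The question the study's design puts to these genes is whether their transcripts differ between crypts with and without Mex3a. None of the 10 was called in KO against WT by edgeR's quasi-likelihood test, at an adjusted p under 0.05, which 0.00621% of all genes passed, or at an unadjusted p under 0.05, which 8.38% passed. DESeq2 also called 0 of the 10 at either limit, where it called 0.669% of genes at the adjusted and 9.09% at the unadjusted limit. The KO and WT values overlapped for all 10 genes, while 4.05% of all genes did not overlap. The 5 positive and 5 negative log2 fold changes ranged from -0.32 (Nr1d2) to 0.32 (Arntl), with a median of 0.05 beside -0.02 over all genes.

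Arntl, the activator of the loop, lies on the plus strand of chromosome 7 from 113207465 to 113314126 (GRCm38, as deposited, here and for all 10 genes). It was measured at 41.2, 53.1, 22.9 and 29.4 CPM in WT replicates 1 to 4. In KO replicates 1 to 4 it was measured at 56.0, 69.1, 33.2 and 25.3 CPM. In both genotypes replicates 1 and 2, the Y mice, were the higher ones. The log2 fold change of KO over WT was 0.32 ± 0.34 (SE), with a 95% interval from -0.45 to 1.10 and an adjusted p of 0.841 by edgeR. The KO mouse was higher in 3 of the 4 same-numbered pairs.

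Per1, Per2 and Per3 encode the PER proteins that carry the repressing arm of the loop. Per1 lies at chr11:69095217-69109960 on the plus strand, Per2 at chr1:91415982-91459324 and Per3 at chr4:151003652-151044665, both on the minus strand. Per1, which is also induced rapidly by stimuli that reset the clock, was at 97.5, 63.5, 40.6 and 57.2 CPM in WT and at 85.4, 79.1, 37.7 and 85.4 CPM in KO mice. Per1 was lowest in replicate 3 of both genotypes, and the genotypes overlapped (log2 fold change 0.15 ± 0.30, adjusted p = 0.936 by edgeR). Per2 had 28.6, 33.9, 51.2 and 30.7 CPM in WT and 21.5, 35.8, 39.5 and 43.1 CPM in KO mice, again with full overlap (-0.05 ± 0.24, adjusted p = 0.981 by edgeR). Per3, the member of the family that is least needed for rhythm in mice, was at 11.3, 8.49, 22.3 and 20.4 CPM in WT mice. In KO mice Per3 was at 6.83, 10.0, 17.9 and 21.1 CPM. Its 4 values from Xist mice lay above its 4 values from Y mice, whereas KO and WT differed by a log2 fold change of -0.16 ± 0.40 (adjusted p = 0.951 by edgeR).

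Cry1 and Ciart encode further repressors of ARNTL and CLOCK, from chr10:85131700-85185064 and chr3:95878503-95882251, both on the minus strand. Cry1 was at 8.58, 16.4, 13.3 and 7.22 CPM in WT and at 9.06, 22.8, 9.98 and 10.4 CPM in KO mice. Replicate 2 was the highest for Cry1 in both genotypes, and the log2 fold change was 0.20 ± 0.35 (adjusted p = 0.925 by edgeR). Ciart had the lowest mean of the 10 over all mice, although Dbp was lower in the Y mice (1.40 against 1.86 CPM). It was at 2.12, 1.21, 3.27 and 2.71 CPM in WT and at 2.43, 1.67, 2.90 and 3.39 CPM in KO mice, from 26 to 102 counts per mouse. Its lowest value was in replicate 2 of both genotypes, with a log2 fold change of 0.16 ± 0.33 (adjusted p = 0.941 by edgeR).

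Nr1d1 and Nr1d2 encode the REV-ERB receptors, which tie the clock to lipid metabolism as well as to Arntl, from chr11:98767932-98775333 and chr14:18204054-18239127, both on the minus strand. Nr1d1 was at 60.7, 18.1, 71.6 and 69.5 CPM in WT mice. In KO mice it was at 25.8, 8.25, 89.4 and 76.8 CPM. The 4 Xist mice were the highest ones, and the Y mice were spread widely, from 8.25 CPM in KO replicate 2 to 60.7 CPM in WT replicate 1. KO and WT means were 50.1 ± 39.2 and 55.0 ± 25.0 CPM (SD, n = 4 each), with a log2 fold change of -0.13 ± 0.66, a 95% interval from -1.62 to 1.35 and an adjusted p of 0.980 by edgeR. Nr1d2 followed the same layout, at 70.1, 28.2, 91.4 and 76.1 CPM in WT and at 37.1, 17.7, 72.4 and 86.0 CPM in KO mice. It was lower in KO in 3 of the 4 same-numbered pairs, with a log2 fold change of -0.32 ± 0.48 (edgeR, unadjusted p = 0.524, adjusted p = 0.908). Nr1d2 was the gene whose call changed in the paired fit, that is with a replicate block: its log2 fold change there was -0.43 ± 0.17 (edgeR, unadjusted p = 0.0386, adjusted p = 0.415), so that 1 of the 10 genes passed the unadjusted limit, which 11.3% of all genes passed in that fit (0% the adjusted limit).

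Dbp and Tef encode PAR bZIP output factors, which drive genes of xenobiotic and lipid handling, from chr7:45705088-45710203 and chr15:81802421-81826863, both on the plus strand. Dbp had 2.45, 1.03, 10.6 and 11.6 CPM in WT mice and 1.01, 1.12, 14.2 and 13.9 CPM in KO mice. Its highest value was 14.1 times its lowest, the widest span of the 10 genes in CPM, and both ends of that span were KO mice. The log2 fold change of KO over WT was 0.24 ± 0.97 (adjusted p = 0.975 by edgeR), and its 95% interval, from -1.94 to 2.41, was the widest of the 10 genes. Tef was at 23.4, 8.12, 70.9 and 53.2 CPM in WT and at 10.3, 7.71, 56.7 and 63.8 CPM in KO mice. The 4 Y mice lay at or below 23.4 CPM and the 4 Xist mice at or above 53.2 CPM, and the log2 fold change of KO over WT was -0.17 ± 0.78 (adjusted p = 0.978 by edgeR).

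**Figure D2:**
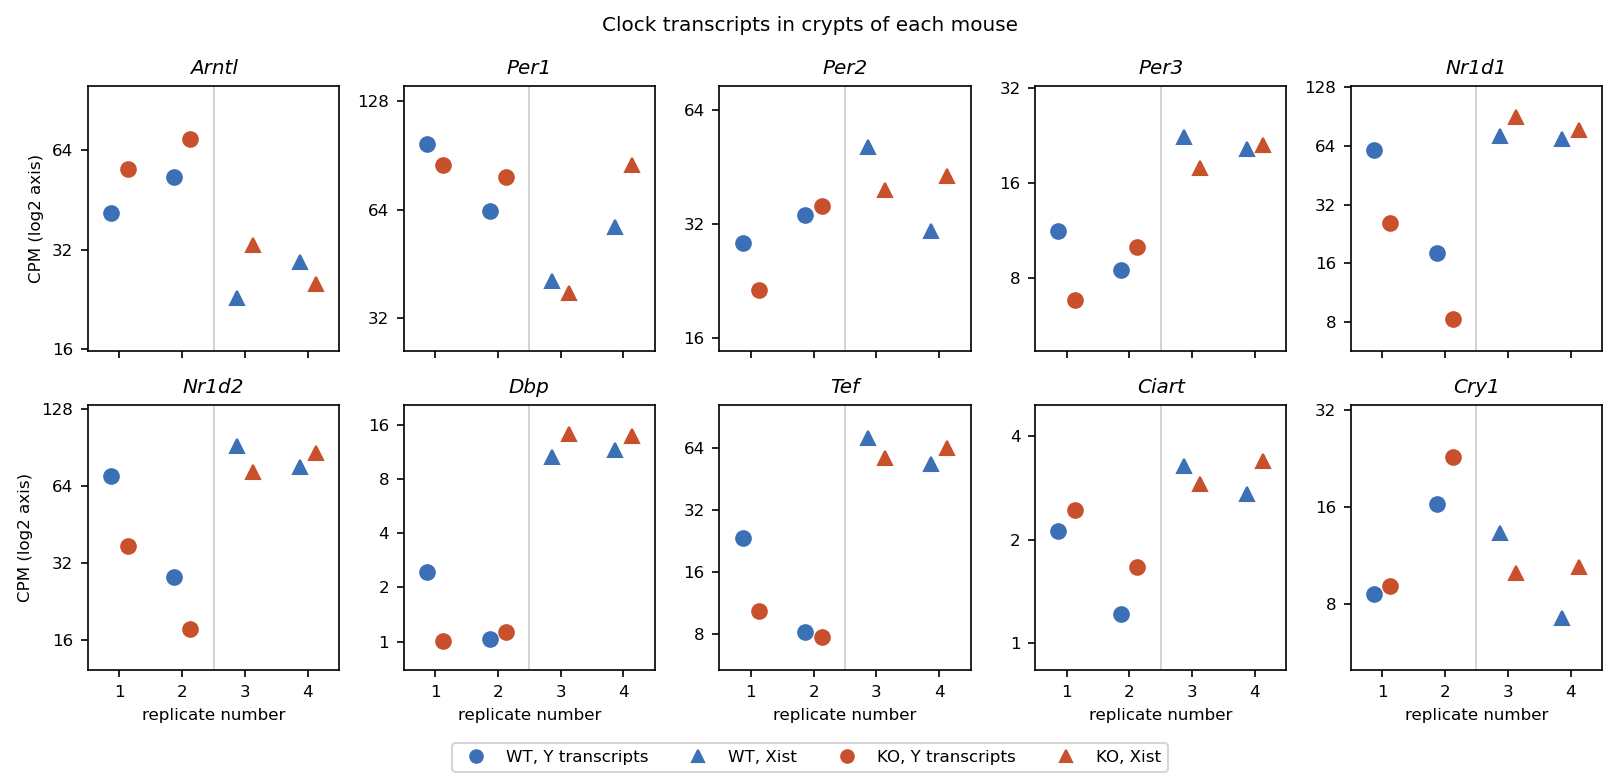
Level of each clock gene in every mouse, in CPM on a log2 axis, against the replicate number, with WT in blue, KO in red, Y mice as circles and Xist mice as triangles. For Dbp, Tef, Per3, Nr1d1, Nr1d2 and Ciart all triangles lie above all circles, for Arntl all lie below, and blue and red overlap in every panel.

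Most of the clock genes varied between mice of one genotype far more than most genes did. The SD of log2 CPM within a genotype was 1.89 for Dbp, and 99.6% of the genes tested had a smaller one. It was 1.5 for Tef, 1.31 for Nr1d1, 0.91 for Nr1d2, 0.71 for Per3 and 0.60 for Arntl. The smallest of the 10 was that of Per2 at 0.41, still above 74.5% of genes, against a median of 0.22 over all genes tested. Ciart (72.0%) had the lowest rank among the 500 genes nearest to it in mean level, and each of the other 9 clock genes had a larger SD than at least 91.6% of its own 500. Genotype accounted for between 0.10% (Dbp) and 7.17% (Nr1d2) of the variance of the clock genes over the 8 mice, against a median of 10.3% over all genes.

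**Figure D3:**
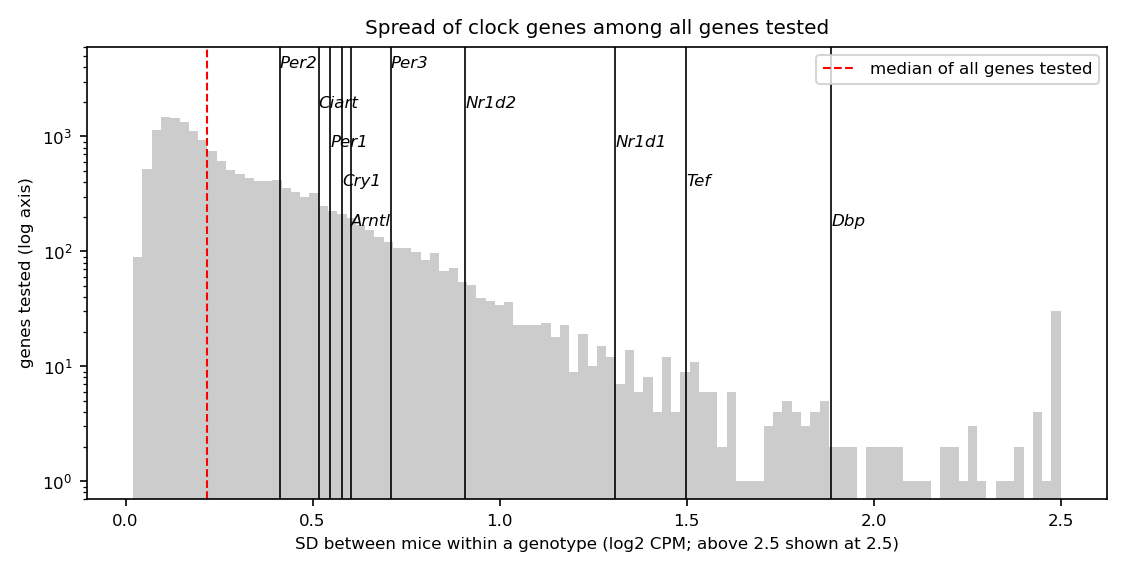
Histogram of the SD of log2 CPM between mice within a genotype over the 16109 genes tested (counts of genes on a log axis), with a black line for each clock gene and a dashed red line at the median of all genes, 0.22. Dbp, Tef and Nr1d1 lie in the far right tail, and all 10 clock genes lie to the right of the median.

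For most of the clock genes, the larger part of this spread lay between the Y mice and the Xist mice. The share of within-genotype variance between them, with the division taken in each genotype separately, was 96.6% for Dbp, 91.1% for Per3, 90.1% for Tef and 88.5% for Arntl. It was 72.1% for Nr1d1, 69.7% for Nr1d2 and 69.4% for Ciart. The remaining genes had 43.7% (Per2), 43.5% (Per1) and 16.0% (Cry1), beside a median of 39.6% over all genes.

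With genotype kept in the model, Dbp, Tef and Per3 were higher in Xist than in Y mice at an adjusted p under 0.05 by edgeR. These 3 of 10 stand beside 0.112% of all genes at that limit, 18 genes in all, and beside 0.0683% that were higher in Xist mice. The comparison was chosen after the values of these mice had been seen, and it rests on a division that the study did not label. Of the 18 genes, 9 lie on the X or Y chromosome, as do all 6 that ranked above Dbp. With genes of these chromosomes left out of the adjustment, 0 of the 10 clock genes and 0% of the remaining 15631 genes passed the adjusted limit by edgeR (adjusted p = 0.0644 for Dbp and 0.0877 for Tef and Per3), while 8 of the 10 passed the unadjusted limit. Same-numbered mice may be paired, which was not shown, and they lie on one side of the division, so the comparison may amount to 2 replicate numbers against 2. The SE, adjusted p and exact p treat the 8 mice as independent and may be too small. With the counts of same-numbered mice summed, 2 summed libraries against 2, Dbp (adjusted p = 0.0325 by edgeR) and Per3 (0.0430) passed the adjusted limit, beside 0.317% of all genes, and Tef (0.111) did not. Dbp rose 9.08-fold, a log2 fold change of 3.18 ± 0.31 (SE) with an adjusted p of 0.00948 by edgeR, from 1.40 ± 0.699 CPM in Y mice to 12.6 ± 1.76 CPM in Xist mice (SD, n = 4 each). It ranked at place 7 of all genes by p. Tef rose 5.12-fold (2.36 ± 0.32, adjusted p = 0.0491 by edgeR), from 12.4 ± 7.43 to 61.2 ± 7.83 CPM. Per3 rose 2.23-fold (1.16 ± 0.15, adjusted p = 0.0491 by edgeR), from 9.16 ± 1.92 to 20.4 ± 1.89 CPM. These calls depended on single mice: without WT replicate 2, or without either of the Y mice of the KO, 0 of the 10 passed the adjusted limit. Without any 1 of the 4 Xist mice 1 of the 10 passed it, and without WT replicate 1 the number was 6, beside 4.83% of all genes in that fit. For the other fits without 1 mouse the share of all genes was not compared. The log2 fold changes themselves stayed between 3.03 and 3.61 for Dbp, between 2.17 and 2.82 for Tef and between 1.05 and 1.27 for Per3 when any 1 mouse was left out. In limma on log2(FPKM + 1), a scale that understates the change of low genes, they were 1.83 for Dbp, 1.82 for Tef and 0.68 for Per3, for Dbp and Per3 smaller by more than 1.5 times.

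Arntl had the opposite sign, with a log2 fold change of -0.98 ± 0.14 (edgeR, unadjusted p = 8.68e-05, adjusted p = 0.0636). Its mean was 54.8 ± 11.5 CPM in the Y mice and 27.7 ± 4.52 CPM in the Xist mice, 1.97-fold higher in the Y mice. DESeq2 called Arntl, Per3, Dbp and Tef at an adjusted p under 0.05, where it called 5.71% of all genes.

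The REV-ERB genes differed by more than Arntl in fold but with larger errors. Nr1d1 was 2.94-fold higher in the Xist mice (1.56 ± 0.49 on the log2 scale, adjusted p = 0.167 by edgeR) and Nr1d2 2.22-fold (1.15 ± 0.33, adjusted p = 0.144 by edgeR). WT replicate 1 was the Y mouse nearest to the Xist mice for both genes, and without it the log2 fold changes were 2.16 and 1.55, each with an adjusted p of 0.0281 by edgeR. In that fit 4.83% of all genes passed the adjusted limit. KO replicate 2 was the lowest mouse for both genes, and without it the log2 fold changes fell to 1.16 for Nr1d1 and 0.90 for Nr1d2 (adjusted p = 0.258 and 0.250 by edgeR). Arntl was at -0.89 in that fit, so Nr1d2 and Arntl then differed by about the same fold.

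Among the remaining repressors the differences were smaller and not of one sign. Ciart was 1.65-fold higher in Xist mice (0.73 ± 0.24, adjusted p = 0.186 by edgeR) and Per2 1.37-fold (0.46 ± 0.19, adjusted p = 0.263 by edgeR). Per1 (-0.57 ± 0.25, adjusted p = 0.287 by edgeR) and Cry1 (-0.47 ± 0.33, adjusted p = 0.492 by edgeR) had negative values. Leaving out 1 mouse moved Per1 between -0.88 and -0.40, Cry1 between -0.71 and -0.11, Ciart between 0.57 and 0.87 and Per2 between 0.31 and 0.60. At an unadjusted p under 0.05, 8 of the 10 genes passed, all but Per1 and Cry1, beside 17.8% of all genes.

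**Figure D4:**
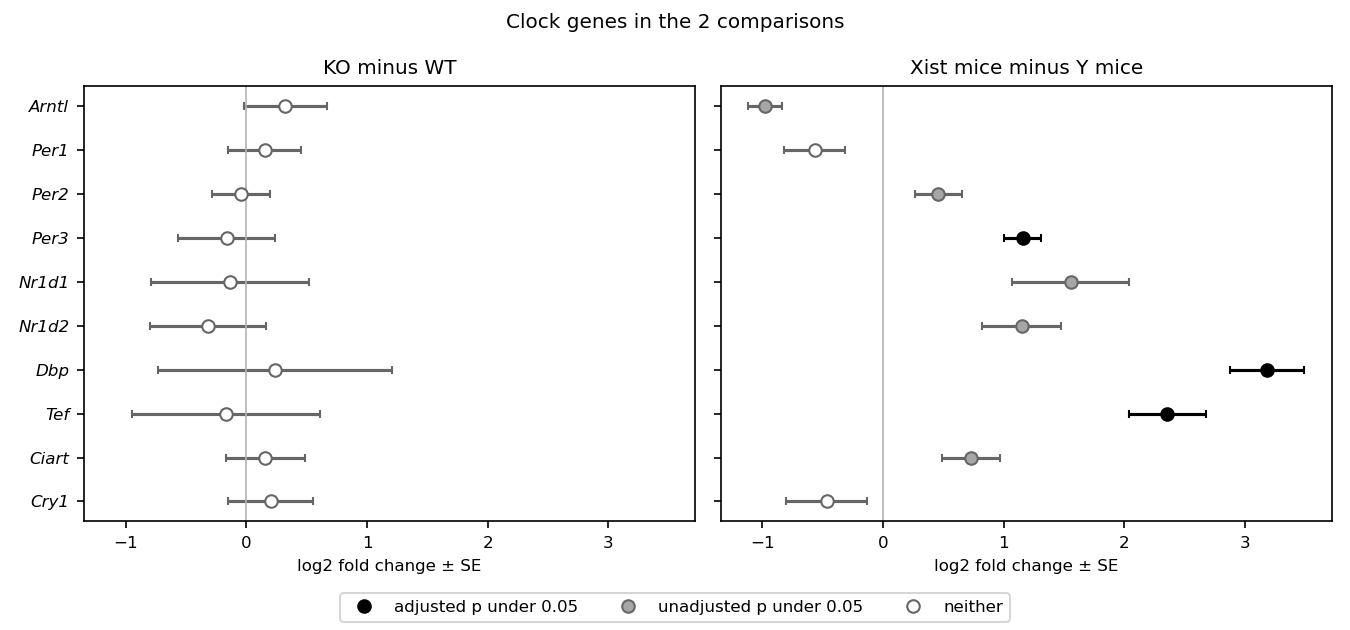
Log2 fold change ± SE of each clock gene for KO minus WT (left) and for Xist mice minus Y mice with genotype in the model (right), on the same axis. On the left every point lies between -0.32 and 0.32, and on the right the points run from -0.98 (Arntl) to 3.18 (Dbp), with filled black points for an adjusted p under 0.05.

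Without borrowing spread from other genes, the values of Xist and Y mice did not overlap for 7 of the 10 genes, against 8.26% of all genes. Arntl was lower in every Xist mouse, as were 4.46% of all genes, and Per3, Nr1d1, Nr1d2, Dbp, Tef and Ciart were higher in every Xist mouse, as were 3.8% of all genes. For each of these 7 the two-sided exact permutation test gave p = 0.0286, the smallest value that 4 mice against 4 allow.

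The direction was the same in both genotypes for all 10 genes. Dbp differed by 2.68 ± 0.44 on the log2 scale between the 2 Xist and 2 Y mice within WT and by 3.70 ± 0.21 within KO. Tef differed by 1.98 ± 0.49 within WT and by 2.73 ± 0.17 within KO, and Arntl by -0.85 ± 0.20 and -1.12 ± 0.17. The adjusted p was under 0.05 for Dbp (0.0179) and Tef (0.0237) within KO by edgeR, where 0.0731% of genes passed (6 of the 10 at the unadjusted limit, beside 17.7% of all genes). Within WT 0 of the 10 passed the adjusted limit, which 0.05% of genes passed, and 5 (Arntl, Per1, Per3, Dbp and Tef) passed the unadjusted limit, beside 5.49% of all genes.

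The size of the difference was not shown to depend on genotype. The interaction of genotype with the division had an unadjusted p above 0.05 for all 10 genes, the lowest being that of Dbp (1.04 ± 0.50 on the log2 scale, unadjusted p = 0.0736, adjusted p = 0.974 by edgeR), while 3.82% of all genes had an unadjusted p under 0.05. Among the Y mice alone, the contrast of KO with WT did not pass the unadjusted limit for any of the 10 genes, beside 6.43% of all genes, the lowest p being that of Arntl (0.41 ± 0.20 on the log2 scale, unadjusted p = 0.0746 by edgeR), and it was -1.21 ± 0.61 for Nr1d1, -0.84 ± 0.45 for Nr1d2, -0.81 ± 0.43 for Tef and -0.70 ± 0.38 for Dbp. Among the Xist mice the same contrast was 0.16 ± 0.20, 0.24 ± 0.59, -0.08 ± 0.44, -0.04 ± 0.40 and 0.34 ± 0.32 for these 5 genes, and 0 of the 10 passed the unadjusted limit, beside 9.02% of all genes.

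When the replicate number, which includes this division, was tested beside genotype, all 10 clock genes passed an unadjusted p under 0.05 in edgeR's F test, beside 12.2% of all genes, and 0 passed the adjusted limit, which 0.0993% of genes passed. The lowest adjusted p values were 0.0779 for Tef and 0.0809 for Dbp. Replicate 2 of both genotypes held the highest Arntl and Cry1 and the lowest Nr1d1, Nr1d2, Tef and Ciart of its genotype.

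The partners of these genes gave a similar picture for some and none for others. Of 12 further core clock genes, 10 were tested, and 0 passed either limit in KO against WT, with a median log2 fold change of 0.08. Npas2, a paralog of Clock that pairs with ARNTL, was at 19.0, 22.7, 11.0 and 15.9 CPM in WT and at 27.4, 24.9, 23.0 and 15.4 CPM in KO mice (log2 fold change 0.40 ± 0.24, unadjusted p = 0.126 by edgeR). Clock itself lay between 91.7 and 120 CPM in all mice. None of the other 3 named partners passed the unadjusted limit, with log2 fold changes of -0.21 ± 0.26 for Nfil3, 0.10 ± 0.39 for Cry2 and 0.01 ± 0.11 for the E-box repressor Bhlhe40.

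Between Xist and Y mice, 4 of these 10 genes passed the unadjusted limit, beside 17.8% of all genes, and 0 the adjusted one. Nfil3, the D-box repressor, had the sign of Arntl (-0.72 ± 0.11, adjusted p = 0.0676 by edgeR), as had Npas2 (-0.54 ± 0.17, adjusted p = 0.162 by edgeR). Cry2 (1.07 ± 0.18, adjusted p = 0.0800 by edgeR) and Hlf, the third PAR bZIP factor (2.12 ± 0.40, adjusted p = 0.0814 by edgeR), had the sign of Dbp and Tef. Clock (-0.11 ± 0.08) and Bhlhe40 (-0.09 ± 0.11) overlapped between the 2 sets of mice, and so did all 16 genes for kinases, ubiquitin ligases and cofactors that act on clock proteins, none of which passed the unadjusted limit in either comparison.

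**Figure D5:**
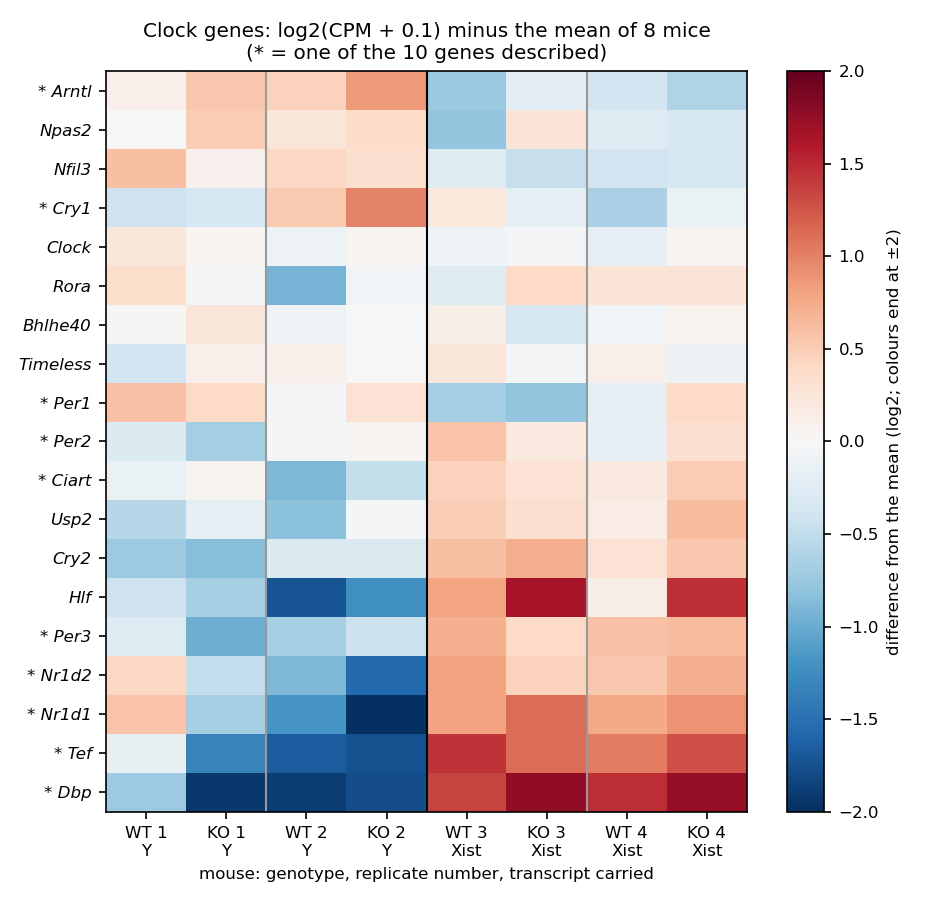
Log2(CPM + 0.1) of the 10 clock genes (asterisks) and 9 further clock genes in each mouse minus the mean of the 8 mice, with the mice ordered by replicate number and colours ending at ±2. Arntl, Npas2 and Nfil3 are mostly red in the Y mice on the left and blue in the Xist mice on the right, and Dbp, Tef, Nr1d1, Nr1d2, Per3, Hlf and Cry2 run the other way.

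Genes downstream of the clock and genes that follow signals known to reset it were counted in the same way. Of 70 further genes tested in the core, modifier, output, glucocorticoid, fasting and immediate-early lists, 7 (5 higher and 2 lower) passed an unadjusted p under 0.05 in KO against WT and 0 the adjusted limit by edgeR. Of all genes, 8.38% passed that unadjusted limit (5.33% higher and 3.05% lower), so the share among the 70 was near the background. Higher in KO at that limit were Nampt, the rate-limiting enzyme of NAD salvage (log2 fold change 0.33 ± 0.12), the tetraspanin gene Tspan4 (0.45 ± 0.20), the sodium-proton exchanger gene Slc9a3 (0.66 ± 0.27), the EGFR inhibitor gene Errfi1 (0.43 ± 0.12) and the cell cycle inhibitor gene Cdkn1a (0.75 ± 0.16). Lower in KO were Wee1, which holds back mitosis (-0.24 ± 0.08), and Plin2, which coats lipid droplets (-0.29 ± 0.12). By edgeR the unadjusted p of these 7 ran from 0.000920 (Cdkn1a) to 0.0471 (Tspan4) and the adjusted p from 0.429 to 0.589, and DESeq2 called 1 of the 70 (Cdkn1a) at the adjusted limit. In the paired fit with a replicate block, 14 of the 70 genes passed the unadjusted limit, beside 11.3% of all genes. Wee1, Errfi1 and Cdkn1a did not overlap between the genotypes, nor did 4.05% of all genes. Cell type markers also differed between KO and WT, and their part in these 7 differences was not tested: all 9 villus enterocyte markers had positive log2 fold changes (median 0.90, 2 at the unadjusted limit, sums of 2568 to 10417 CPM in KO and 1541 to 4174 CPM in WT). All 7 crypt stem cell markers had negative ones (4 at the unadjusted limit, sums of 3347 to 4120 CPM in KO and 4485 to 5166 CPM in WT), and 3 of 8 immune markers were higher at that limit (478 to 880 CPM in KO and 178 to 503 CPM in WT). All 6 Paneth cell markers had negative log2 fold changes (median -0.67, 0 at the unadjusted limit, sums of 7381 to 24059 CPM in KO and 14823 to 43841 CPM in WT), and 3 of 7 epithelial markers were higher at that limit, with sums that did not overlap (10376 to 11921 CPM in KO and 9111 to 9716 CPM in WT). None of the 15 output genes tested passed the adjusted limit between Xist and Y mice, 6 were higher and 2 lower at the unadjusted limit (9.91% and 7.91% of all genes), and Usp2, a deubiquitinase gene known to cycle in many tissues, was among the higher ones (0.81 ± 0.13, adjusted p = 0.0800 by edgeR).

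Markers of other cells and states were counted between the same mice, where 9.91% of all genes were higher in Xist mice at the unadjusted limit. All 9 villus enterocyte markers were higher in Xist mice at an unadjusted p under 0.05 and 0 at the adjusted limit, with a summed level of 2226 to 10417 CPM in Xist and 1541 to 3104 CPM in Y mice. Of 5 stromal markers tested, 4 were higher at the unadjusted limit, at a summed level of 18.7 to 26.5 CPM in Xist and 9.97 to 16.4 CPM in Y mice, and the muscle markers summed to at most 4.46 CPM in any mouse. Immune markers (4 of 8 higher at the unadjusted limit) summed to 357 to 543 CPM in Xist and 178 to 880 CPM in Y mice. Among 10 fasting and PPAR-alpha target genes, 4 were higher at the unadjusted limit, with sums of 1108 to 1582 CPM in Xist and 536 to 1343 CPM in Y mice. Of 10 glucocorticoid target genes, 2 were higher and 1 lower at the unadjusted limit, and of 6 Paneth cell markers 1 was higher, at sums of 16803 to 25333 CPM in Xist and 7381 to 43841 CPM in Y mice. None of the crypt stem, proliferation, or immediate-early genes passed the unadjusted limit between these mice. Total counts ran from 20324184 to 30654105 in Xist and from 20687389 to 24561282 in Y mice. The part of these markers in the difference of the clock genes was not tested, and in bulk crypts fewer cells of a type and less RNA per cell cannot be told apart.

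The genes whose pattern over the mice was most like that of Arntl were ranked among 11235 protein-coding genes by Pearson's r on log2 CPM with the genotype means subtracted, over 8 mice. The highest r was that of Timmdc1 (0.99), followed by Golga7, Farsa, Zc3hc1 and Tsr3 (0.97 or more). The lowest was that of Tns4 (-0.99), followed by Acacb, Epha2, Rara and Lonp2 (-0.98 or lower to 2 decimals). Of the 10 clock genes, Tef stood nearest to the mirror image of Arntl, at -0.97, and Dbp next, at -0.95. Since the 8 mice fall into Y mice and Xist mice, these r values are a description with no test.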

How the data were processed

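RNA-seq reads of crypts from 8 mice were processed by the authors, whose submission notes name CASAVA, HISAT2 2.0.5 and featureCounts 1.5.0-p3, and gene coordinates follow GRCm38. The deposited values are raw counts of reads on each gene and, for the same genes, FPKM values, which also correct for gene length and library size. The authors' own fold changes and p-values were deposited too and were not used. Columns of unmapped samples numbered 0. Counts were tested with edgeR 4.0.16 in R 4.3.3 (filterByExpr, minimum count 10, TMM, quasi-likelihood F test, genotype as the only term), with Benjamini-Hochberg adjustment over all 16109 genes tested. The SE is the log2 fold change divided by the square root of F. CPM were computed by edgeR from counts and TMM-scaled library sizes, and log2 CPM used a prior count of 2. Alternatives used DESeq2 1.42.0 and limma 3.58.1 on log2(FPKM + 1) and log2(FPKM + 0.1). Exact tests ran over all 70 assignments. Python 3.11.15 and matplotlib 3.10.9 were used for the rest.

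Samples were grouped by their labels. After subtracting genotype means, the WT and KO mouse of each number correlated at 0.129, 0.501, 0.141 and 0.294 over all genes tested (0.09 to 0.473 over autosomal genes). Same-numbered mice share the Xist or Y division, and differently numbered mice were not compared, so these values do not show that the mice are paired. The main test used no pairing, and a fit with a replicate block is given as an alternative. On simulated counts for KO against WT (16109 genes simulated, 200 changed), edgeR recovered 95% of 4-fold and 64% of 2-fold changes with 4.79% false calls, and DESeq2 95% and 69% with 15.5% false calls. The simulated mice had the spread usual for a gene's level and no Xist or Y division. All clock genes but Ciart varied more than that (coefficient of variation of Dbp 0.908 against 0.292, of Tef 0.737 against 0.178). These recovery shares therefore do not hold for the clock genes. The members and gene lists were chosen with earlier results of these data known. Named were all 10 clock genes, the further clock genes with an unadjusted p under 0.05, 5 partners whatever their values (Clock, Npas2, Nfil3, Cry2 and Bhlhe40; 1 more is not reported here) and the 5 highest and 5 lowest correlations with Arntl among protein-coding genes with a mean log2 CPM of at least 1. Hlf, Usp2 and the markers of other cells were named after their values were seen. Motifs were searched in RefSeq windows of GRCm38.p6.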

Additional observations from a re-analysis of the deposited data

Results flagged for a closer look

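Each clock gene was examined in both genotypes for a mouse far from the other 3, 20 groups of 4 mice in all, of which chance alone marks about 1 in 20. In KO mice Cry1 was far higher in replicate 2 (22.8 CPM) than in the others (9.06 to 10.4 CPM), with a gap of 0.903 of the whole range. In KO mice Per1 was far lower in replicate 3 (37.7 CPM) than in the others (79.1 to 85.4 CPM), with a gap of 0.868 of the range. In WT mice the same replicate numbers held the highest Cry1 (16.4 CPM) and the lowest Per1 (40.6 CPM).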

How the results depend on the processing

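In KO against WT no clock gene was called at the adjusted limit under any of the 17 alternatives (DESeq2, other scaling factors and filters, limma on FPKM, covariates, leaving out each mouse). At the unadjusted limit 0 remained 0 under 16 of them, and with the replicate block it became 1 (Nr1d2). No member's genotypes stopped overlapping in FPKM or without any 1 mouse. Arntl (0.063 to 0.56 without 1 mouse) and Nr1d2 (-0.65 to -0.027) kept their sign. The other 8 signs did not hold: leaving out 1 mouse moved Per1 between -0.0059 and 0.42, Per2 between -0.16 and 0.17, Per3 between -0.43 and 0.062, Nr1d1 between -0.57 and 0.22, Dbp between -0.26 and 0.70, Tef between -0.65 and 0.29, Ciart between -0.056 and 0.37 and Cry1 between -0.21 and 0.43. Dbp was also -0.037 with the replicate block, -0.095 with the Xist or Y division as a covariate and -0.068 with limma on log2(FPKM + 0.1). Of the 70 further genes, 7 passed the unadjusted limit (8.38% of all genes) and 14 with the replicate block (11.3% of all genes). The number was 12 with the division as a covariate and 3 to 9 without 1 mouse (3 without WT replicate 3, 4 without KO replicate 3). The share of all genes in these last fits was not compared, so these counts cannot be set against a background. At the adjusted limit 0 of the 70 passed, and 1 (Cdkn1a) in DESeq2.

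The Xist and Y comparison and its alternatives were chosen after seeing the data. All 10 directions held throughout, and 6 to 10 genes passed the unadjusted limit, which 17.8% of all genes passed in the main fit. For most of these alternatives the share of all genes was not compared, so their counts cannot be set against a background. At the adjusted limit the count of 3 became 1 with upper-quartile factors, 8 with no filter (a fit that called 1536 of 31255 genes, the cause was not tested), 0 with at least 10 counts in every library (which removes the 6 X and Y genes, such as Ddx3y, that ranked above Dbp), 0 with X and Y genes left out of the adjustment, 1 with limma on log2(FPKM + 1) or log2(FPKM + 0.1), and 0 to 6 without 1 mouse. Dbp stayed past the adjusted limit in 13 of 18 alternatives, Per3 in 6 and Tef in 4. Correlations of Arntl with the other clock genes were not tested, because the mice fall into 2 sets of 4. With 4 mice a group, the 95% interval of KO over WT on the log2 scale differed between the clock genes. For Dbp, with 22 to 53 counts in the Y mice, it ran from -1.94 to 2.41. It ran from -1.92 to 1.59 for Tef and from -1.62 to 1.35 for Nr1d1, the gene with the highest mean FPKM. For Per2 it ran from -0.58 to 0.49. How the recovery of changes depends on the level of a gene was not tested.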
